A study of Drosophila melanogaster with 4 samples.

Results

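The genes described here are those whose messenger RNA differed from unexposed flies in the same direction after exposure to each of 3 vapours, benzene, toluene and formaldehyde. Benzene and toluene are aromatic hydrocarbons and formaldehyde is the simplest aldehyde, and all of them are volatile pollutants. The 4 Affymetrix genome arrays were benzene (24 h of vapour), toluene (24 h), formaldehyde (24 h) and control (not exposed), with 1 array per group. All groups were male, wild-type Canton-S young adults of 1 to 2 days, and the exposed vials stood closed with mesh in a bottle with the vapour. How strong the vapours were, how many flies each RNA sample pooled and how the unexposed vials were kept is not stated in the labels. Of male markers, 19 of 24 testis and 23 of 23 accessory gland genes reached the minimum mean described next, against 2 of 14 ovary and yolk genes.

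A gene was chosen when its log2 probe set value lay at least 0.4 log2 units (1.32-fold) from the control on all 3 exposed arrays. Of 7920 genes with a mean of at least 6.5 over the 4 arrays, 48 were higher on all 3 and 10 were lower, 58 in all. These are 0.606% and 0.126% of the genes examined. In a short gene list, 0 members is near these shares. Taken singly, the benzene array had 1.89% of genes at least this far above the control and 0.934% below, the toluene array 2.84% and 0.492%, and the formaldehyde array 4.41% and 3.84%. The values that chose the genes are the ones described, so they carry no test. The 3 comparisons share 1 control array, and whatever set that array apart from the others enters all 3 differences. With no replicate array, no difference can be set against the spread between replicates. Exposure, pool of flies, RNA preparation and hybridisation cannot be told apart. Only TotC and Fbp2 were at least 2-fold higher on all 3 exposed arrays, and no gene was 2-fold lower on all 3. Under the same distance on 2 exposed arrays alone, 81 genes were higher and 17 lower without the benzene array, 91 and 36 without the toluene array, and 63 and 13 without the formaldehyde array.

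The genes are known from several organs of the fly. The fat body stores lipid and protein and secretes peptides into the hemolymph, the fly's blood, during infection and stress. The midgut secretes proteases, glycosidases and lipases inside a lining of chitin and peritrophin proteins, the peritrophic matrix. In RNA from flies not divided into tissues, fewer cells of a type and less RNA per cell cannot be told apart.

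The median of the 48 higher genes was 0.75 log2 units above the control for benzene, 0.65 for toluene and 0.70 for formaldehyde. Over all 7920 genes the medians were -0.02, 0.01 and 0.01. The 10 lower genes had medians of -0.63, -0.49 and -0.59 for benzene, toluene and formaldehyde. Levels of the 58 genes on the control array ran between 5.52 and 12.70, and 4 of them (CG43133, CG7381, iotaTry and Cpr49Ac) lay below that array's median of 6.46 over non-control probe sets. The minimum mean takes in the exposed arrays. These 4 genes and CG18585 (6.47 in the control) reached 6.5 only through their higher exposed values, so their admission was not independent of the exposed values.

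**Figure D1:**
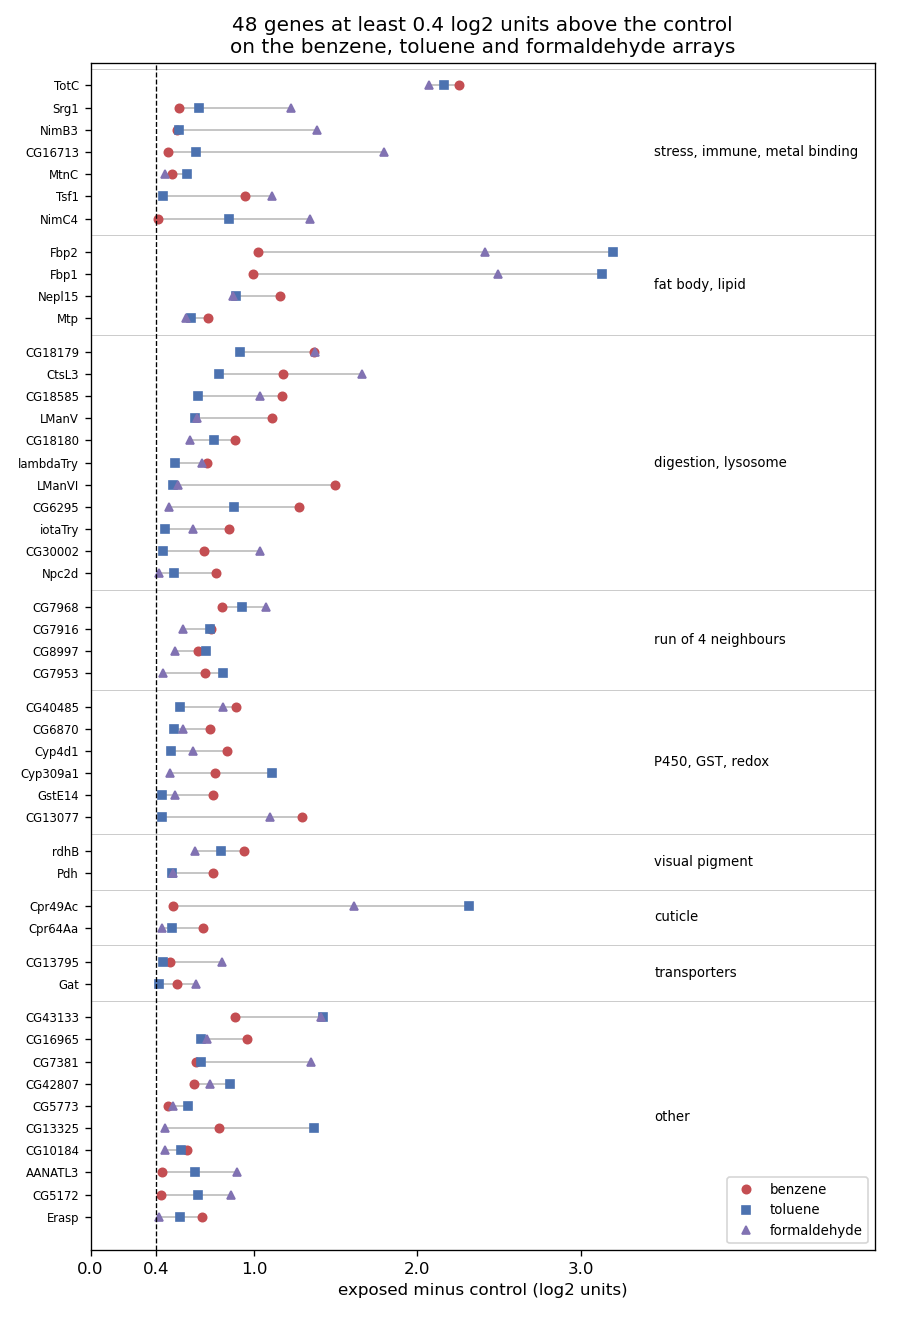
Exposed minus control log2 ratio (horizontal axis, log2 units) of each of the 48 shared higher genes on the benzene, toluene and formaldehyde arrays, with 1 array per point and genes grouped by role. The dashed line marks the distance of 0.4 that chose the genes. TotC stands alone with 3 nearly equal ratios above 2, whereas Fbp1, Fbp2 and Cpr49Ac spread widely to the right with toluene.

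TotC, a Turandot gene whose small secreted peptide appears in the hemolymph under stress, ranked first by its smallest ratio. Its level was 12.78 with benzene, 12.69 with toluene and 12.59 with formaldehyde, against 10.52 in the control. These are differences of 4.78-fold, 4.49-fold and 4.21-fold. The exposed arrays spanned only 0.18 log2 units, so the control stood off from the nearest of them by 11.4 times that range, the highest such value among the 58 genes. The Turandot genes TotB, TotF and TotZ lay below the minimum mean, between 3.67 and 5.09 on every array, and were not examined further. Of the 4 genes at the minimum mean in the list of Turandot, Diedel and JAK/STAT genes, TotC alone met the rule. Diedel, which encodes a secreted immune regulator, had log2 ratios of 2.28 and 1.14 with benzene and toluene but 0.06 with formaldehyde. Stat92E, the transcription factor of the JAK/STAT pathway, stood 0.26, 0.34 and 0.44 above the control, and its receptor gene dome had ratios of -0.06, -0.04 and 0.32.

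Fbp1 and Fbp2, fat body proteins best known from the late larva, followed. Fbp1 encodes a receptor that takes up larval serum proteins, and Fbp2 a protein related to alcohol dehydrogenase. Fbp2 had levels of 8.78 with benzene, 10.95 with toluene and 10.17 with formaldehyde, against 7.75 in the control. Fbp1 had levels of 8.76, 10.90 and 10.26 in that order, against 7.77 in the control. The pair kept within 0.1 log2 units of each other on every array. In contrast to TotC, the exposed arrays differed among themselves by 2.17 log2 units for Fbp2 and 2.14 for Fbp1, more than the distance of the benzene array from the control (1.03 and 0.99). Lsp2, which encodes a larval serum protein, was left out by its benzene ratio: 0.13, against 1.63 with toluene and 1.02 with formaldehyde. Of 6 fat body markers at the minimum mean, Fbp1 and Fbp2 met the rule. The list's medians were 0.29, 1.5 and 0.52 for benzene, toluene and formaldehyde. Its summed level was 13.74, 14.40 and 13.94 on the log2 scale, against 13.58 in the control. Fbp1 and Fbp2 enter these medians and sums, which are therefore not independent of the choice. Of the list's other genes, Lsd-1 had ratios of 0.44, 0.76 and -0.13, and fit -0.004, 1.36 and -0.35. The abundant lipoprotein gene apolpp had ratios of 0.07, 0.24 and 0.02. The part of fat body content in these values was not tested.

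A further pair of genes with roles in the fat body or in lipid transport were higher by more even amounts. Nepl15, of the neprilysin-like peptidase family, had levels of 8.28, 8.01 and 7.99 with benzene, toluene and formaldehyde, against 7.12 in the control. Its neighbours and relatives Nepl13 (0.53, 0.40 and 0.27) and Nepl14 (0.39, 0.65 and 0.22) were above the control by less. Mtp, which encodes the microsomal triglyceride transfer protein that loads lipid onto lipoproteins, had levels of 8.79, 8.69 and 8.66, against 8.07 in the control. Its exposed values spanned 0.14 log2 units, and it stood off by 4.29 times that range.

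Genes of secreted and lysosomal hydrolases and gut proteins formed the largest role group, with 11 of the 48, assigned after their values were seen. The serine protease genes CG18179 and CG18180 are neighbours. CG18179 had levels of 10.79 with benzene, 10.34 with toluene and 10.80 with formaldehyde, against 9.42 in the control, or 2.59-fold, 1.89-fold and 2.59-fold. CG18180 had levels of 13.39, 13.26 and 13.12, against 12.51 in the control, which makes it the brightest of the higher genes there. The trypsin genes lambdaTry (0.71, 0.52 and 0.68) and iotaTry (0.85, 0.46 and 0.63) met the rule as well. So did the protease gene CG30002 (0.69, 0.44 and 1.04), the carboxypeptidase gene CG18585 (1.17, 0.66 and 1.04) and the cathepsin L-like gene CtsL3 (1.18, 0.78 and 1.66).

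The alpha-mannosidase genes LManV and LManVI, also neighbours, were highest with benzene. LManVI had levels of 8.96 with benzene, 7.97 with toluene and 8.0 with formaldehyde, against 7.46 in the control. LManV had 9.43, 8.96 and 8.97, against 8.32 in the control. Next to LManV, LManIV lay below the minimum mean, at 3.81, 3.54 and 3.40, against 3.25 in the control. Beyond it, LManIII missed the distance with formaldehyde only (0.58, 0.47 and 0.28), while LManI and LManII had ratios between -0.11 and 0.39. The lipase-family gene CG6295 had ratios of 1.28, 0.88 and 0.48, and Npc2d, of the sterol-binding Npc2 family, 0.77, 0.51 and 0.42. Among 11 Npc2 and acyl-CoA binding protein genes at the minimum mean, Npc2d alone met the rule.

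These genes did not stand for the digestive enzymes as a whole. Of 43 digestive enzyme genes at the minimum mean, 4 were shared higher (lambdaTry, iotaTry, LManV and LManVI) and 1 shared lower (Bace). The shares over all genes were 0.606% shared higher and 0.126% shared lower, both smaller than in this list. At least 0.4 above the control were 11 of the 43 with benzene, 9 with toluene and 7 with formaldehyde, and at least 0.4 below were 2, 7 and 7. Of all genes, 1.89%, 2.84% and 4.41% lay as far above and 0.934%, 0.492% and 3.84% as far below. The abundant trypsin gene alphaTry had ratios of 0.09, -0.07 and -0.23 with benzene, toluene and formaldehyde, and epsilonTry 0.28, -0.51 and -0.78. Of 17 gut markers at the minimum mean, Npc2d alone met the rule; the list's medians were 0.09, -0.06 and -0.12, and its summed level was 16.09, 15.77 and 15.66 on the log2 scale, against 15.98 in the control. The part of gut content in the hydrolase values was not tested.

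Defence and metal-binding genes made up another 6 of the 48 besides TotC. Tsf1 encodes transferrin, the iron carrier of the hemolymph, and had levels of 13.01 with benzene, 12.51 with toluene and 13.17 with formaldehyde, against 12.06 in the control. A second Tsf1 probe set that reached the minimum mean gave larger ratios (1.31, 0.65 and 1.51), and another, dim on every array, gave 0.35, 0.15 and 0.18. MtnC, a metallothionein gene, had levels of 11.01, 11.10 and 10.97, against 10.51 in the control, with only 0.13 log2 units between the exposed arrays. The other metallothionein genes did not meet the rule: MtnA had ratios of 0.15, 0.35 and 0.35, MtnB 0.48, 0.11 and 0.61, and MtnD 0.36, 0.26 and 1.33.

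The Nimrod genes NimB3 and NimC4 belong to a family of phagocytosis receptors and related secreted proteins, and both were highest with formaldehyde. NimC4, a receptor for apoptotic cells, had levels of 8.26 with benzene, 8.70 with toluene and 9.19 with formaldehyde, against 7.85 in the control. NimB3 had 8.67, 8.68 and 9.53, against 8.14 in the control. Its neighbours NimB1 (0.80, 0.20 and 1.23), NimB2 (0.32, 0.25 and 0.79), NimB4 (0.04, 0.22 and 0.29) and NimB5 (0.23, 0.38 and 0.44) missed the distance with at least 1 vapour. Of 12 hemocyte (blood cell) markers at the minimum mean, NimC4 alone met the rule, and the list's medians were 0.16, 0.17 and 0.24 for benzene, toluene and formaldehyde; Hml, a main hemocyte marker, had 0.05, -0.04 and 0.27. The summed level of the list was 12.84, 12.90 and 12.95 on the log2 scale, against 12.71 in the control, and its part in the Nimrod values was not tested. Srg1, named as a target of the STING antiviral pathway, had ratios of 0.54, 0.66 and 1.23, and CG16713, a gene of the Kunitz protease inhibitor family, 0.47, 0.64 and 1.80.

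Antimicrobial peptides, secreted by the fat body and epithelia against microbes, had no gene in the shared set. Of 18 antimicrobial peptide and bomanin genes at the minimum mean, 0 met the rule in either direction. In a list this short, 0 is near the shares of all genes (0.606% higher and 0.126% lower). At least 0.4 above the control were 8 with benzene, 0 with toluene and 12 with formaldehyde. Of all genes, 1.89%, 2.84% and 4.41% lay as far above. Peptidoglycan recognition and immune sensing genes gave 0 of 16, with 6, 1 and 6 above. These counts leave out probe sets shared by several genes. Of 272 such probe sets at the minimum mean, 3 were higher and 1 lower on all 3 exposed arrays. The lower one is shared by the peptidoglycan recognition genes PGRP-SC1a and PGRP-SC1b. It had ratios of -0.50 with benzene, -0.58 with toluene and -1.19 with formaldehyde.

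Of the genes for foreign-compound metabolism, 3 met the rule. Cyp4d1 had ratios of 0.84 with benzene, 0.49 with toluene and 0.63 with formaldehyde, and Cyp309a1 0.76, 1.11 and 0.49; both encode cytochromes P450. They were 2 of 55 P450 genes at the minimum mean, where 0.606% of all genes were shared higher. At least 0.4 above the control were 3 of the 55 with benzene, 10 with toluene and 3 with formaldehyde. Of all genes, 1.89%, 2.84% and 4.41% lay as far above. GstE14, a glutathione S-transferase gene known for its part in making the steroid hormone ecdysone, had ratios of 0.75, 0.44 and 0.52, as 1 of 31 such genes; 2, 7 and 3 of them were above by that distance. The heat shock list had 0 of 10 genes and the antioxidant enzyme list 0 of 14 in the shared set, and no gene of these lists was 0.4 from the control with any vapour. For lists this short, 0 in the shared set is near the shares of all genes (0.606% higher and 0.126% lower). The redox-related genes CG40485 (a short-chain dehydrogenase), CG6870 (a cytochrome b5-like protein) and CG13077 (a cytochrome b561-like protein) had smallest ratios of 0.55, 0.51 and 0.44. A second, dimmer CG40485 probe set was below the minimum mean and gave 0.33, 0.19 and 0.34.

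Both shared genes of visual pigment metabolism act on retinoids in the eye. Pdh encodes the photoreceptor dehydrogenase and had levels of 12.00 with benzene, 11.75 with toluene and 11.75 with formaldehyde, against 11.25 in the control. The retinol dehydrogenase gene rdhB had 8.77, 8.63 and 8.47, against 7.84 in the control. Of 15 photoreceptor markers at the minimum mean, 0 met the rule, and the list's medians were 0.26, 0.04 and 0.21. Its summed level was 14.03, 13.80 and 14.00 on the log2 scale, against 13.76 in the control. The part of photoreceptor content in the values of Pdh and rdhB was not tested.

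Cuticle genes were represented by Cpr49Ac and Cpr64Aa, 2 of 33 at the minimum mean, where 0.606% of all genes were shared higher. Cpr49Ac was the dimmest of the 58 on the control array, with 6.03 with benzene, 7.84 with toluene and 7.14 with formaldehyde, against 5.52 in the control. Cpr64Aa had 7.58, 7.39 and 7.33, against 6.89 in the control. The GABA transporter gene Gat (0.53, 0.42 and 0.64) and CG13795, of the same neurotransmitter transporter family (0.48, 0.44 and 0.80), were modestly higher. The probe set of Gat is the only one of the 58 with the name ending that Affymetrix uses for probes that may match transcripts of more than 1 gene.

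The run CG8997, CG7916, CG7953 and CG7968, 4 genes that follow each other in RefSeq's gene order, was higher as a whole. CG8997 had levels of 11.95 with benzene, 12.00 with toluene and 11.81 with formaldehyde, against 11.29 in the control, and CG7916 had 10.77, 10.77 and 10.60, against 10.04. CG7953 had 11.56, 11.67 and 11.30, against 10.86, and CG7968 had 7.77, 7.90 and 8.04, against 6.97. The nearest genes at the minimum mean on either side did not meet the rule: CG33307 had ratios of 0.12, 0.13 and 0.59, and Ance 0.10, 0.17 and 0.04. Among the 58 genes, 10 stood next to another of the set with the same direction, in 6 adjacent pairs (5 higher and 1 lower), of 53 pairs with at least 1 member in which both genes were at the minimum mean. All genes at the minimum mean formed 4791 adjacent pairs. No pair joined a higher gene with a lower one, which says little where so few genes are lower. Neighbouring relatives of similar sequence can share signal on an array, and this was not tested.

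**Figure D2:**
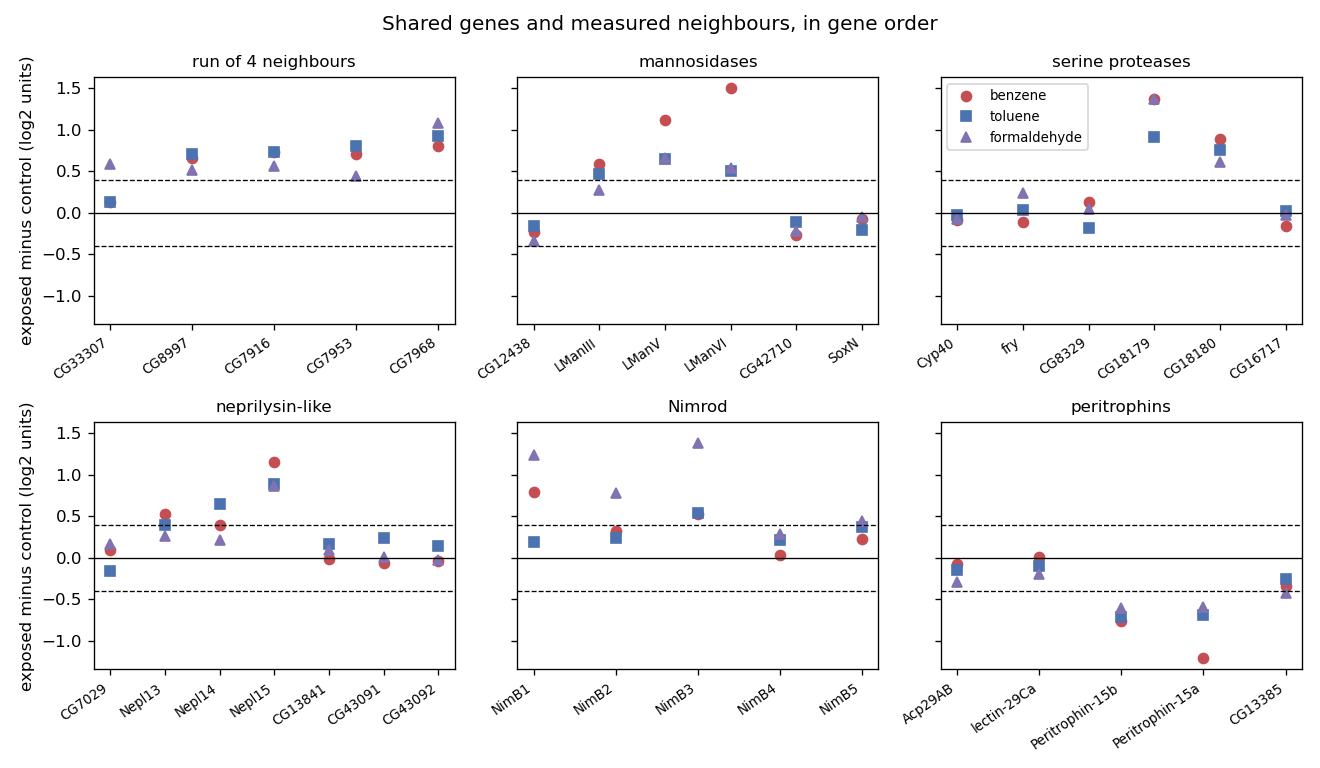
Exposed minus control log2 ratio (vertical axis, log2 units) of shared genes and of the genes at the minimum mean within 3 places of 1 of them in RefSeq's gene order (horizontal axis, order only), with 1 array per point and dashed lines at 0.4 above and below the control. The run of 4, the mannosidase, the protease and the peritrophin pairs pass the line on all 3 arrays, while most flanking genes lie between the lines; NimB3 and Nepl15 are the only genes of their families shown that pass it with each vapour.

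Of the remaining 10 higher genes, which have no role assigned here apart from the acetyltransferase-like gene AANATL3, CG43133 had rank 5 among the 48. It had levels of 6.84 with benzene, 7.38 with toluene and 7.37 with formaldehyde, against 5.96 in the control. CG42807 was brighter, at 11.48, 11.70 and 11.57, against 10.85 in the control. The smallest ratio was 0.68 for CG16965 and 0.65 for CG7381, and lay between 0.42 and 0.47 for CG5773, CG13325, CG10184, AANATL3, CG5172 and Erasp.

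The 10 lower genes were fewer and closer to the control. CG4830 led, with 6.99 with benzene, 6.84 with toluene and 7.44 with formaldehyde, against 8.16 in the control, or 2.24-fold, 2.50-fold and 1.65-fold lower. Peritrophin-15a and Peritrophin-15b, neighbouring genes for chitin-binding proteins of the gut lining, came next. Peritrophin-15b had levels of 6.83, 6.88 and 7.0, against 7.60 in the control. Peritrophin-15a had 10.55, 11.06 and 11.17, against 11.75 in the control. They were the 2 of 22 chitinase, peritrophin and mucin genes at the minimum mean that met the rule. Of all genes, 0.126% were shared lower. Peritrophin-A, a relative outside the pair, had ratios of 0.13, 0.21 and 0.03.

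Bace, an aspartic protease gene related to beta-secretase, was the brightest of the lower genes. Its levels were 12.21 with benzene, 12.20 with toluene and 12.07 with formaldehyde, against 12.70 in the control. The protease gene yip7, in the same list, came close to the rule with ratios of -0.35, -0.44 and -0.62. The antennal gene a5, of the phosphatidylethanolamine-binding protein family, had levels of 7.34, 7.56 and 7.23, against 8.01 in the control. CG4744, CG14841, CG7567, CG10752 and CG5043 completed the set, with largest ratios between -0.48 and -0.40.

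**Figure D3:**
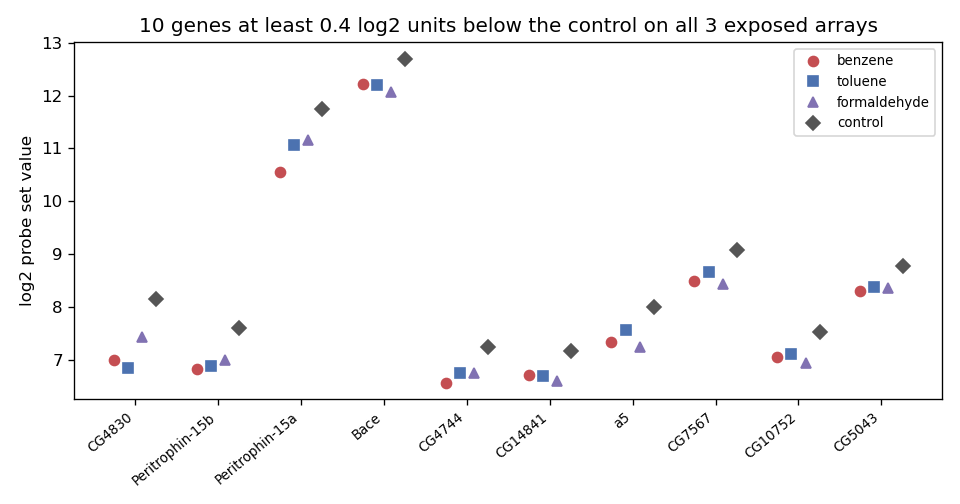
Log2 probe set values (vertical axis) of the 10 shared lower genes on the benzene, toluene, formaldehyde and control arrays, with 1 array per point. The control is the highest of the 4 points for each gene, and the exposed points of CG4830 and Peritrophin-15a lie farther apart than those of the others.

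Testis markers lay on the same side of the control as the lower genes without meeting the rule. All 19 at the minimum mean were below the control on all 3 exposed arrays, where 2622 of all 7920 genes were, and 0 met the rule; the list's medians were -0.23 with benzene, -0.15 with toluene and -0.30 with formaldehyde. The list's summed level was 15.88, 15.95 and 15.80 on the log2 scale, against 16.09 in the control. The spermatid gene fzo was among the 5 genes just outside the distance, with ratios of -0.70, -0.50 and -0.37. Of 23 accessory gland markers, 18 were below the control on all 3 arrays and 0 met the rule. The part of testis or accessory gland content in the lower set was not tested. The count of lower genes leans on the distance chosen: 72 genes lay at least 0.3 below the control on all 3 arrays and 3 at least 0.5 below, whereas 86 and 25 lay as far above.

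Just inside the distance of 0.4 on the higher side were CG5172, Gat, Npc2d, Erasp and NimC4, with smallest ratios between 0.41 and 0.43. Just outside were Ser8, CG13043, CG7560, CG15617 and CG34227, between 0.38 and 0.39. On the lower side CG14841, a5, CG7567, CG10752 and CG5043 lay inside, between -0.45 and -0.40. CG33296, CG34169, fzo, CG42535 and CG30432 lay outside, between -0.39 and -0.37.

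The members differed in how alike the vapours were. For 31 of the 48 higher genes and 9 of the 10 lower genes, the control lay farther from the nearest exposed array than the exposed arrays lay from each other. For a member with a range below 0.4 this follows from the rule, which sets the gap at 0.4 or more. The same share over all genes was not computed. The median range over the exposed arrays was 0.36 log2 units for the higher genes, 0.17 for the lower genes and 0.15 for all 7920 genes, of which 93.2% had a range below 0.4. CG5773 (0.12), MtnC (0.13), Mtp and CG10184 (both 0.14) were the tightest of the higher genes. The widest were Fbp2, Fbp1, Cpr49Ac (1.82) and CG16713 (1.32).

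**Figure D4:**
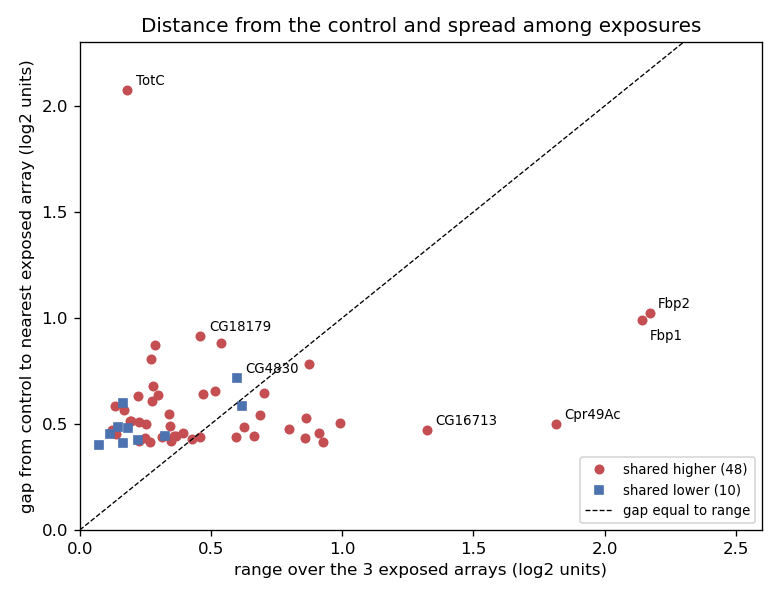
Gap from the control to the nearest exposed array (vertical axis, log2 units) against the range over the 3 exposed arrays (horizontal axis, log2 units) for the 48 shared higher and 10 shared lower genes. TotC combines a gap of 2.07 with a range of 0.18, and Fbp1, Fbp2, Cpr49Ac and CG16713 lie far right of the dashed line where gap and range are equal.

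Within the higher genes the vapour with the highest value differed by role. Over all 48 it was benzene for 23, toluene for 11 and formaldehyde for 14. It was benzene for 8 of the 11 hydrolase and gut genes, formaldehyde for 3 and toluene for 0. It was benzene for 5 of the 6 P450, GST and redox genes, and formaldehyde for 5 of the 7 defence and metal-binding genes. Toluene led for Fbp1, Fbp2, Cpr49Ac, Cyp309a1 and CG13325, each by at least 0.4 log2 units over formaldehyde. Comparing the exposed arrays directly, which leaves out the control, 6 of the 48 were at least 0.4 higher and 6 at least 0.4 lower with toluene than with benzene, where 1.74% and 0.859% of all genes were. With formaldehyde, 12 were higher and 3 lower than with benzene (3.08% and 1.1% of all genes), and 10 were higher and 5 lower than with toluene (2.61% and 1.67%). The exposed values compared here also chose the 48, so these counts are not independent of the choice. The roles were assigned with these values known, so the counts are descriptions of the arrays. Of the chip's own control probe sets, those for actin and for 18S rRNA stood 0.76 and 0.50 log2 units above the control on the formaldehyde array and within 0.16 of it on the other exposed arrays. Their part in the formaldehyde values was not tested.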

How the data were processed

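Biotin-labelled cRNA was made from total RNA with a 3′ IVT kit, per the labels' protocols. The authors' deposited values are on a log2 scale, 1 value per probe set and array. Affymetrix Expression Console 1.1, RMA and MAS5 appear in the submitters' processing notes, with no statement of which made the values. Medians over non-control probe sets were 6.42 with benzene, 6.44 with toluene and 6.45 with formaldehyde, against 6.46 in the control. Normalisation between arrays, if applied, removes differences in overall RNA, and RMA is known to understate ratios of dim genes.

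Of 18952 probe sets, 183 array controls, 402 with several gene symbols and 4721 with none were set aside. The other 13646 gave 11981 genes, each taken from the probe set of highest mean over the 4 arrays. Of these, 4061 lay below the minimum mean of 6.5. All 58 members matched RefSeq's Release 6 annotation, used for names and gene order alone. No member symbol had changed.

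Values were used as deposited (Python 3.11.15, pandas 2.3.3). The selection was checked on simulated data. With 1 array per group there was no test, and the number of arrays limits the precision. Alternatives were other distances, minimum means, probe set choices, scalings and leaving out each exposed array. Named were the 25 foremost genes per direction, list members that met the rule, and 5 genes on each side of the distance; the other members were named after their values were seen, as were relatives and neighbours. Members and the 33 gene lists were chosen with earlier results of these data known.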

Additional observations from a re-analysis of the deposited data

How the results depend on the processing

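No paired analysis was possible because each group holds 1 array. The reported counts are 48 genes higher and 10 lower. A distance of 0.3 gave 86 higher and 72 lower, and one of 0.5 gave 25 and 3. Without the benzene array 81 were higher and 17 lower, without the toluene array 91 and 36, and without the formaldehyde array 63 and 13. A minimum mean of 7.5 gave 37 and 5, one of 6.0 gave 52 and 12, and no minimum 60 and 17. Scaling mattered less: quantile scaling gave 45 and 11 and a median shift 48 and 11. Quantile scaling lost 3 of the 48, averaging a gene's probe sets lost 1, and requiring every probe set at the minimum mean to pass lost 0 of the 58. None of the 58 genes, nor of the 10 just outside the distance, changed sign under these settings, where 47 of the 68 remained at a minimum mean of 7.5. Most settings could not change a sign. Other distances and minimum means leave each ratio as it is, and the 3 ratios of each such gene share a sign. Only scaling and probe set choice could have done so in principle. The scalings moved median ratios little, for benzene from -0.0245 as deposited to -0.0027 with quantile scaling. A change of sign was therefore hardly possible, and its absence carries little weight. Relatives, neighbours and other list genes named for comparison were not recomputed. Only 2 of the 58 genes have more than 1 named probe set, so the choice of probe set was hardly put to the test. At 0.3 the lower side gained 62 genes, among them yip7, fzo and the testis-type proteasome genes Prosalpha3T and Prosbeta5R2 from the lists. The higher side gained 38, among them Ser8, Cyp6d4, GstD8, Cpr49Ag, Corp and eater from the lists.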

Other observations

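Probe sets that could not be given a single gene were held to the same distances. Of 714 probe sets without a gene symbol and with a mean of at least 6.5, 11 were at least 0.4 higher on all 3 exposed arrays and 0 were lower. Among the 7920 genes the shares were 0.606% higher and 0.126% lower, and 0 lower is near the latter. The brightest and 1 other of the 11 follow. The brightest of the 11 in the control stood 1.57 log2 units above the control with benzene, 1.54 with toluene and 1.35 with formaldehyde, where the control level was 12.03. Another, at 9.05 in the control, had ratios of 2.22, 2.32 and 2.72. Of 272 probe sets shared by several genes, 3 were higher on all 3 arrays and 1 was lower, to be read beside the same shares of all genes.

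Most lists held no gene that met the rule. Cytosolic ribosomal protein genes gave 0 of 40, odorant-binding protein genes 0 of 28 and nutrient, insulin and lipid response genes 0 of 27. With lists of these sizes, 0 is near the shares of all genes, 0.606% higher and 0.126% lower.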
